A study of Mus musculus with 6 samples.

Results

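Mitochondrial carriers of the Slc25 family were examined in bulk RNA sequencing of mouse prefrontal cortex. The members are all genes of the deposited table whose symbol is Slc25a followed by a number, which gave 47 of its 21878 genes. Of these, 41 passed a filter on low counts and were tested along with all 14440 genes that passed. The study holds 6 libraries from separate mice, 3 controls and 3 in the group named Gls1_CamkIIaCre. The controls carried the CamKIIα-Cre transgene and only wild-type alleles of the targeted gene, and the Gls1_CamkIIaCre mice carried the same transgene with 1 floxed allele, so both groups carry Cre. Cre driven from the CamKIIα promoter acts in forebrain excitatory neurons. The floxed allele is therefore removed in part of the cells, while each library was made from all cells of the tissue, unsorted. Mice without any intact allele in these neurons were not viable and were not studied. The labels used here give no ages.

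Carriers of this family sit mostly in the inner mitochondrial membrane and exchange metabolites between the cytosol and the mitochondrial matrix. Glutamate made from glutamine in neurons can enter the matrix through the glutamate carriers, or through the aspartate-glutamate carriers in exchange for aspartate. The aspartate-glutamate carriers also form part of the malate-aspartate shuttle, which brings reducing equivalents from glycolysis into mitochondria. Adenine nucleotide carriers send ATP out of the matrix in exchange for ADP, and they are among the most abundant proteins of the inner membrane.

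Few carriers differed between the groups. Slc25a12, the aspartate-glutamate carrier of neurons also known as aralar, rose, and Slc25a5, an adenine nucleotide carrier found in most tissues, fell. These were the 2 of 41 tested carriers (4.88%) past a Benjamini-Hochberg adjusted p of 0.05 in edgeR's quasi-likelihood test, which called 8.24% of all tested genes (3.95% higher and 4.29% lower). An unadjusted p under 0.05 was reached by 5 of the 41 carriers, a smaller share than the 22.4% of all tested genes. The median log2 fold change of Gls1_CamkIIaCre over control was -0.011 over the tested carriers and -0.0024 over all tested genes. Of the 41 carriers, 19 had a fold change above 0 and 22 below. With fold changes corrected for the length and GC content of transcripts, 27 lay above 0. That correction raised all genes alike, with a median of 0.025 over the carriers and 0.021 over all tested genes. Values of the 2 groups did not overlap for 11 carriers, which is 26.8% of those tested against 26.7% of all tested genes. Without overlap, 8 of the 41 were higher in Gls1_CamkIIaCre (against 13.1% of all tested genes) and 3 of the 41 were lower (against 13.6%).

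Library totals lay between 17987807 and 19330961 counts, and the carriers took 0.311% to 0.315% of them. Of all tested genes 571 were called higher and 619 lower. That split shifted to 429 and 749 with upper-quartile factors, 116 and 558 on log2(FPKM + 1), 122 and 607 on log2(FPKM + 0.1), and 506 and 361 after the length and GC correction. Markers of cortical excitatory neurons were present in every library, at a summed level of 5208 to 5941 CPM (counts scaled to library size with TMM factors). Markers of the striatum, a neighbouring region, differed between groups: 12 of 14 fell and 0 rose. Their mean level relative to each gene's mean was 1.22, 2.1 and 1.39 in controls 1 to 3 and 0.399 to 0.468 in Gls1_CamkIIaCre. Markers of other cells that fell were 5 of 11 for oligodendrocytes, 2 of 6 for their precursors, 4 of 10 for astrocytes, 3 of 10 for microglia, 4 of 8 for inhibitory neurons, 5 of 10 for endothelial and mural cells and 2 of 5 for blood, and 0 rose. List medians ran from -0.12 (precursors) to -0.27 (endothelial and mural) and -0.32 (blood). Of 10 excitatory neuron markers, 2 rose and 0 fell. Their part in the carriers' values was not tested. In unsorted tissue, fewer cells of a type and less RNA per cell cannot be told apart.

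Carriers spanned a wide range of levels in control cortex when compared per length, in FPKM (fragments scaled to gene length and library size). Slc25a4, the adenine nucleotide carrier of brain, heart and muscle, had 457 ± 6.15 FPKM (SD, n = 3), followed by Slc25a5 at 180 ± 2.71 FPKM and Slc25a3, the phosphate carrier, at 159 ± 4.51 FPKM. These 3 genes, which together supply the substrates of ATP synthesis, made up 62.5% to 63.2% of the summed carrier FPKM in controls and 61.6% to 62.0% in Gls1_CamkIIaCre. Next came Slc25a23, a calcium-regulated ATP-Mg/phosphate carrier, at 80.0 FPKM, Slc25a22, the main glutamate carrier, at 60.1 FPKM and Slc25a11, the oxoglutarate-malate carrier, at 41.5 FPKM. Slc25a12 stood at 12.2 ± 0.362 FPKM and Slc25a18, the second glutamate carrier, which is enriched in astrocytes, close to it at 11.8 ± 0.334 FPKM. Slc25a13, or citrin, the aspartate-glutamate carrier of liver, had 0.483 ± 0.113 FPKM. The 6 carriers that did not pass the filter were Slc25a2, Slc25a31, Slc25a41, Slc25a43, Slc25a48 and Slc25a54. None of them exceeded 8 counts in a library, and Slc25a54 had 0 counts in all 6, so no difference was detectable for them at this depth.

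**Figure D1:**
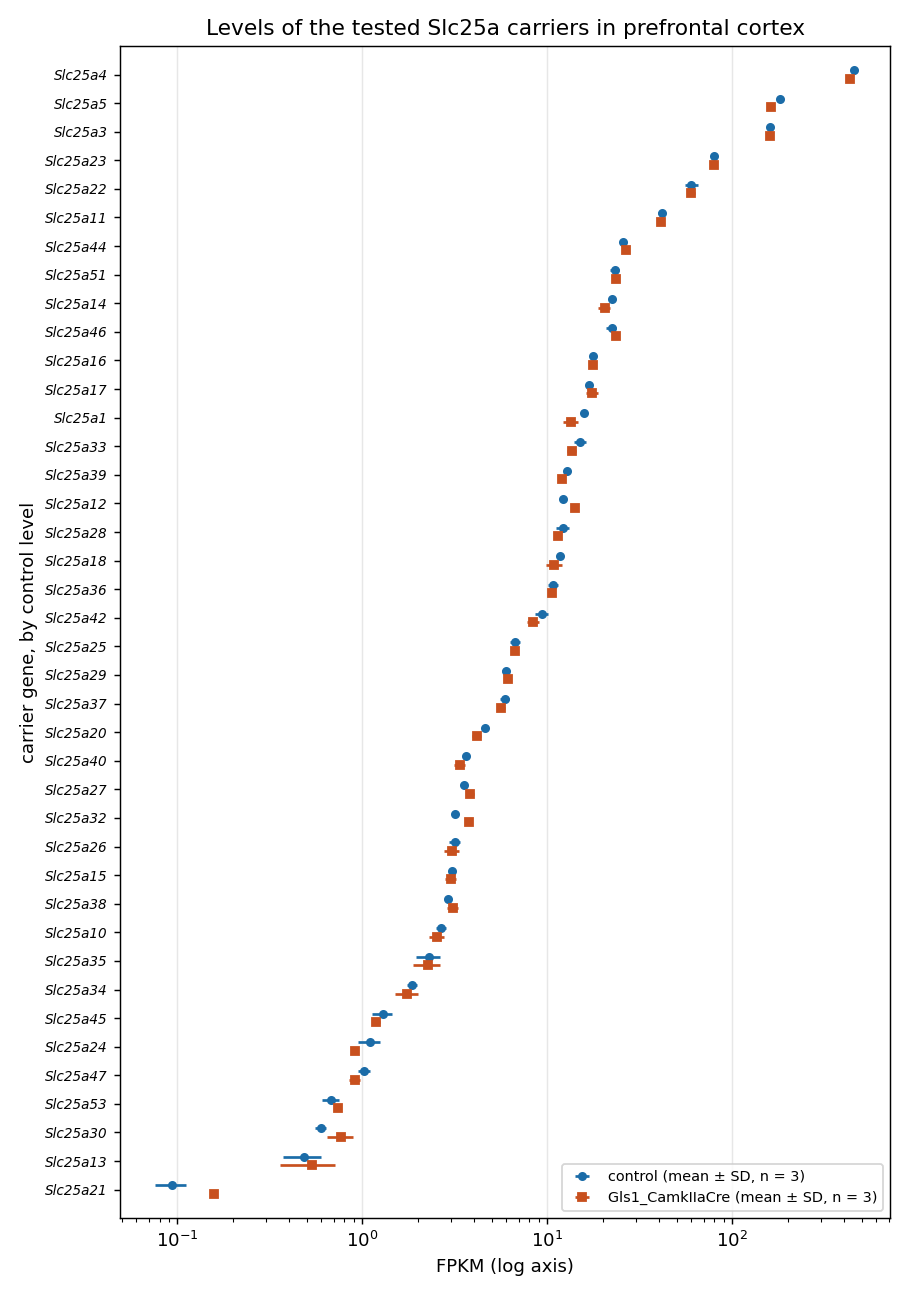
Level of 40 of the 41 tested carriers in FPKM (log axis), as mean ± SD of 3 control libraries (circles) and 3 Gls1_CamkIIaCre libraries (squares), ordered by control level. Slc25a4 at 457 FPKM leads, and the order of the carriers spans more than 3 decades of the axis.

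Of 10 tested carriers of amino acids, 1 rose and 0 fell, where 3.95% of all tested genes rose and 4.29% fell. In substrate groups as small as these, 0 or 1 call does not set a group apart. Slc25a12 (NCBI gene on chromosome 2, 71274270 to 71367781, GRCm38.p6) had 144, 156 and 147 CPM in controls 1 to 3 and 167, 176 and 177 CPM in Gls1_CamkIIaCre 1 to 3. Every Gls1_CamkIIaCre library lay above every control. The means were 149 ± 5.88 and 173 ± 5.54 CPM (SD, n = 3 per group), or 1.16 times the control mean. The log2 fold change was 0.22 with an SE of 0.043, and the edgeR adjusted p was 0.00414. The call held in all 16 alternatives run, with log2 fold changes between 0.19 and 0.25 and adjusted p between 0.000208 and 0.0435. Among all tested genes it was number 209 in order of p. Slc25a12 was lowest in control 1, where the striatal markers were also lowest among controls, and control 2, with the most striatal signal, had the highest control value. This order rests on 3 control libraries, and a part of striatal signal in the Slc25a12 values was not tested.

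The other carriers of glutamate and aspartate did not pass. Slc25a22 had 183, 178 and 211 CPM in the controls and 190, 207 and 206 CPM in Gls1_CamkIIaCre. The groups overlapped, with control 3 above all other libraries. Its log2 fold change was 0.075 ± 0.057 (SE, edgeR adjusted p = 0.493), with a 95% interval of the ratio from 0.968 to 1.15. Without control 3 it was 0.15 (adjusted p = 0.0474), the 1 setting of 16 in which it was called. Slc25a18 had 52.1, 50.7 and 49.5 CPM against 50.7, 50.6 and 45.0 CPM, with an interval of the ratio from 0.883 to 1.04 (edgeR adjusted p = 0.612). Of the astrocyte markers, 4 of 10 fell, with a list median of -0.14, against -0.059 for Slc25a18. Slc25a13 had 3.11, 3.14 and 3.93 CPM in the controls and 3.21, 2.40 and 3.48 CPM in Gls1_CamkIIaCre, from 43 to 73 counts per library, and its interval of the ratio from 0.667 to 1.2 leaves changes of that size undetectable.

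With the main settings, partners of Slc25a12 in the malate-aspartate shuttle stayed within narrow intervals. Slc25a11, which exchanges malate for oxoglutarate, had 93.5, 91.7 and 86.4 CPM in the controls and 91.7, 87.6 and 94.0 CPM in Gls1_CamkIIaCre, with overlapping groups and a ratio interval from 0.940 to 1.08 (edgeR adjusted p = 0.938). Its sign depended on the setting. After the length and GC correction the Slc25a11 log2 fold change was 0.087 (edgeR adjusted p = 0.301), its largest value over the alternatives. The FPKM ratios below were not corrected in this way. Mdh1, Mdh2, Got1 and Got2, the malate dehydrogenases and aspartate aminotransferases of cytosol and matrix, had log2 fold changes from -0.037 to -0.0055, and 0 of the 4 passed in edgeR, with 0 at an unadjusted p under 0.05. The ratio of Slc25a12 to Slc25a11 in FPKM was 0.294 ± 0.0142 in controls and 0.342 ± 0.0197 in Gls1_CamkIIaCre (SD, n = 3 per group), with all 3 Gls1_CamkIIaCre values above all 3 controls (two-sided exact permutation p = 0.1, the smallest that 3 against 3 can give; 4 such ratios were computed, adjusted p = 0.4). Ratios of Slc25a22 to Slc25a18 (5.11 ± 0.437 and 5.56 ± 0.728), Slc25a4 to Slc25a5 (2.54 ± 0.0280 and 2.69 ± 0.145) and Slc25a12 to Slc25a13 (26.2 ± 6.47 and 29.0 ± 12.3) overlapped between groups.

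Among the remaining amino acid carriers, Slc25a44, a carrier of branched-chain amino acids, had 105, 109 and 108 CPM in the controls and 112, 113 and 114 CPM in Gls1_CamkIIaCre. All 3 Gls1_CamkIIaCre values were above the controls, by a ratio of 1.05 (edgeR adjusted p = 0.326). Slc25a38, which brings glycine into mitochondria for haem synthesis, Slc25a29, a carrier of basic amino acids, and Slc25a15, the ornithine carrier, had log2 fold changes of 0.11, 0.10 and -0.048. Slc25a45 and Slc25a47, counted here with the amino acid carriers and both under 5 CPM, had -0.048 and -0.11. None of these passed.

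**Figure D2:**
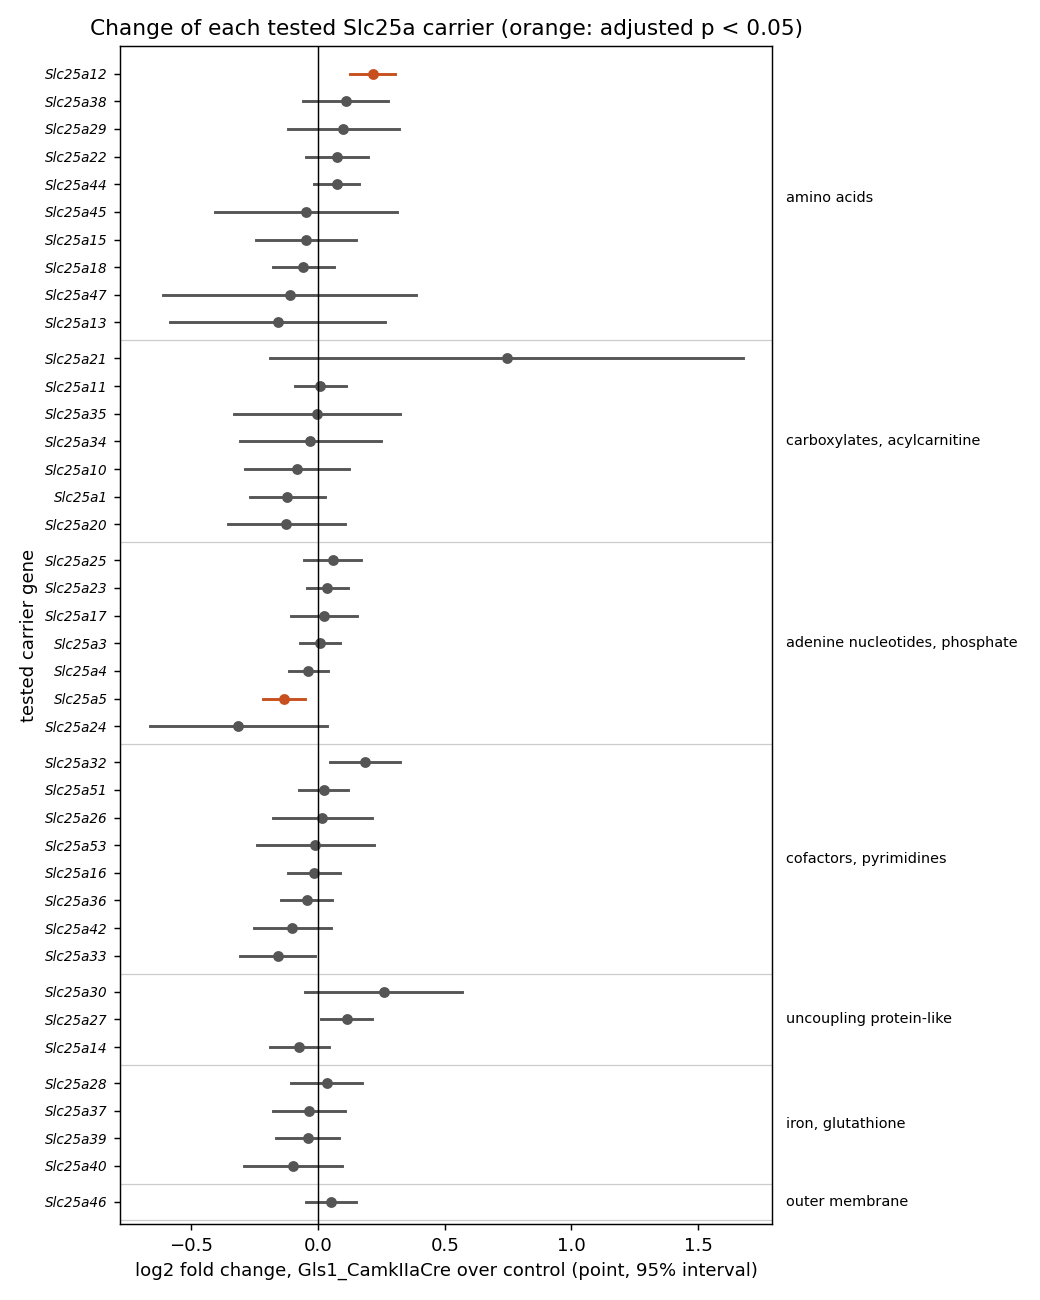
Log2 fold change of Gls1_CamkIIaCre over control (point) with its 95% interval (line) for 40 of the 41 tested carriers, grouped by assigned role, with those past the adjusted threshold in orange. Slc25a12 at 0.22 and Slc25a5 at -0.13 are the orange points, and the widest interval belongs to Slc25a21, at 7 to 13 counts per library.

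Of 7 tested carriers of adenine nucleotides and phosphate, 0 rose and 1 fell, where 4.29% of all tested genes fell. Slc25a5 (chromosome X, 36795597 to 36798808, GRCm38.p6) had 209, 211 and 212 CPM in the controls and 201, 188 and 186 CPM in Gls1_CamkIIaCre. The controls were close together, and every Gls1_CamkIIaCre library lay below them. The means were 210 ± 1.72 and 192 ± 7.90 CPM (SD, n = 3 per group), or 0.911 times the control mean. The log2 fold change was -0.13 with an SE of 0.041, and the edgeR adjusted p was 0.0439. This call was near the threshold and was lost in 8 of 16 alternatives: DESeq2 gave an adjusted p of 0.0566 and limma voom 0.0543, and it was lost on leaving out control 1, 2 or 3 or Gls1_CamkIIaCre 2 or 3, with adjusted p from 0.0827 to 0.180. Corrected for the length and GC content of transcripts, the log2 fold change was -0.036 (adjusted p = 0.683).

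Close relatives of Slc25a5 showed no call. Slc25a4, whose product carries out the same ADP/ATP exchange, had 570, 574 and 567 CPM against 548, 548 and 570 CPM. Gls1_CamkIIaCre 3 lay within the control range, and the interval of the ratio ran from 0.923 to 1.026 (edgeR adjusted p = 0.589). Reads shared by these similar genes depend on the authors' counting. Slc25a3 had a log2 fold change of 0.0074 and an interval of the ratio from 0.952 to 1.06. The calcium-regulated ATP-Mg/phosphate carriers are thought to set the matrix content of adenine nucleotides. Slc25a23 and Slc25a25 had log2 fold changes of 0.036 and 0.057. Slc25a24, a low-level member of this group, had 4.70, 5.34 and 4.25 CPM in the controls and 3.86, 3.57 and 4.06 CPM in Gls1_CamkIIaCre, a log2 fold change of -0.32 ± 0.168 (SE, edgeR adjusted p = 0.282) with groups that did not overlap. Slc25a17, a peroxisomal carrier of cofactors and nucleotides, had 0.023.

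**Figure D3:**
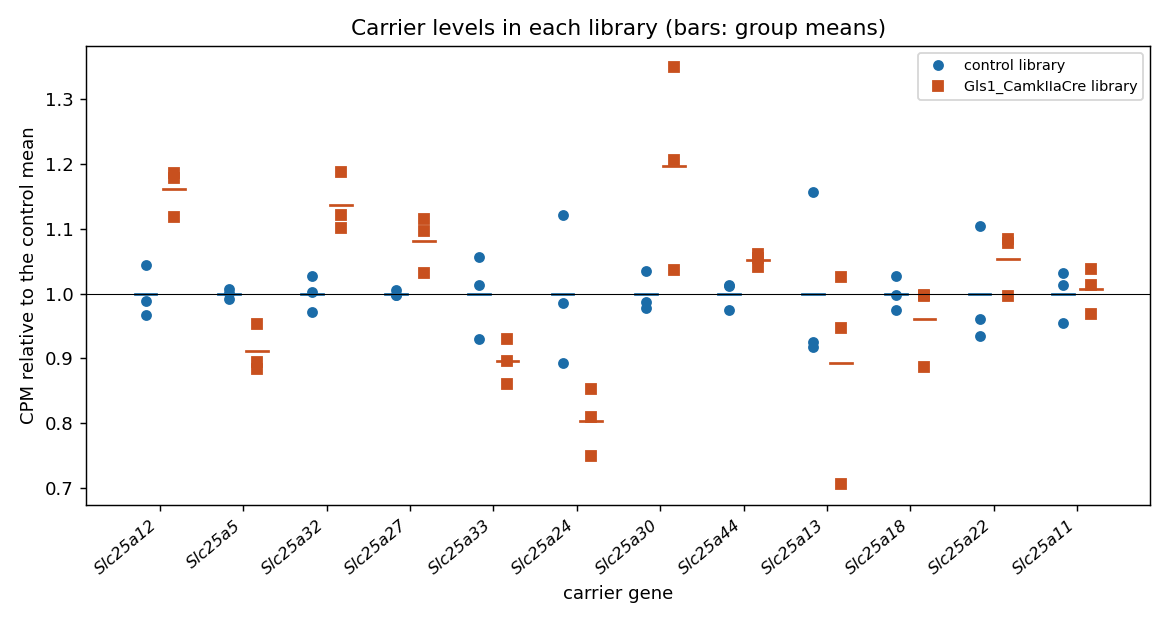
CPM of 12 carriers in each library relative to the control mean of that gene, with circles for controls, squares for Gls1_CamkIIaCre and short bars for group means. Slc25a12, Slc25a32, Slc25a27, Slc25a30 and Slc25a44 have all 3 squares above the circles, Slc25a5 and Slc25a24 have them below, and Slc25a33, Slc25a13, Slc25a18, Slc25a22 and Slc25a11 overlap.

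Carriers of cofactors and pyrimidine nucleotides had 0 calls among 9 tested, with 2 at an unadjusted edgeR p under 0.05. Slc25a32, which carries folate or FAD into mitochondria, had 26.8, 25.4 and 26.2 CPM in the controls and 31.0, 28.7 and 29.3 CPM in Gls1_CamkIIaCre. The groups did not overlap, and the ratio was 1.14 (log2 fold change 0.18 ± 0.067 SE, edgeR adjusted p = 0.0951). Slc25a33, a pyrimidine nucleotide carrier, had 26.3, 28.6 and 29.9 CPM against 26.3, 25.3 and 24.3 CPM, with Gls1_CamkIIaCre 1 level with control 1 (log2 fold change -0.16, edgeR adjusted p = 0.187). Slc25a36, the other pyrimidine carrier, had -0.046. Slc25a26, the S-adenosylmethionine carrier, had 0.017, and Slc25a51, the NAD carrier of mitochondria, 0.021. The coenzyme A carriers Slc25a42 and Slc25a16 had -0.10 and -0.016, and Slc25a53 had -0.011. Adjusted p values of these 6 genes were 0.455 or higher by edgeR.

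Carriers of carboxylates and acylcarnitine also had 0 calls among 7 tested by edgeR, and 0 at an unadjusted p under 0.05. Slc25a1, which exports citrate for fatty acid synthesis, had 28.6, 28.9 and 30.6 CPM in the controls and 28.2, 28.1 and 24.7 CPM in Gls1_CamkIIaCre. The groups did not overlap, though Gls1_CamkIIaCre 1 and 2 lay just under control 1 (log2 fold change -0.12, edgeR adjusted p = 0.329). Slc25a20, which imports acylcarnitines for fatty acid oxidation, and Slc25a10, the dicarboxylate carrier, had -0.13 and -0.083, and Slc25a34 and Slc25a35 -0.031 and -0.0059. Slc25a21, the oxodicarboxylate carrier, had 8, 7 and 7 counts in the controls and 13, 12 and 11 in Gls1_CamkIIaCre. That separation, a log2 fold change of 0.74 ± 0.448 (SE), did not pass at this depth (edgeR adjusted p = 0.350).

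Of 3 carriers related to the uncoupling proteins, 0 passed by edgeR and 1 had an unadjusted p under 0.05. Slc25a27, which is expressed mainly in brain, had 71.5, 72.0 and 71.5 CPM in the controls and 79.9, 78.6 and 74.0 CPM in Gls1_CamkIIaCre, a ratio of 1.08 without overlap (edgeR adjusted p = 0.162). Slc25a30 had 5.05, 5.29 and 5.0 CPM against 5.30, 6.91 and 6.17 CPM, where Gls1_CamkIIaCre 1 nearly touched the controls (adjusted p = 0.325). Slc25a14 had a log2 fold change of -0.075. The 4 carriers of iron and glutathione, namely the mitoferrins Slc25a37 and Slc25a28 and the glutathione carriers Slc25a39 and Slc25a40, had 0 calls and log2 fold changes from -0.10 to 0.033. Slc25a46, which lies in the outer membrane and acts in mitochondrial dynamics, had 0.051.

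The precision of these libraries bounds most of the family. For 24 of 41 carriers the 95% interval of the ratio lay within 1.2-fold in either direction, and each of these had a mean of 9.85 CPM or more. The interval of Slc25a12 reached further, from 1.09 to 1.24, and that of Slc25a5 ran from 0.859 to 0.966. The 17 carriers with intervals past 1.2-fold otherwise had means under 30 CPM. Within groups, the median coefficient of variation over 36 carriers at a mean of 5 CPM or more was 4.05% in controls and 4.06% in Gls1_CamkIIaCre.

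Transcript length moved with the fold changes across all genes. When tested genes were split into 10 bins of equal size by length, the bin of shortest transcripts, up to 1521 nt, had a median log2 fold change of -0.095, with 9 genes called higher and 137 lower. The bin of longest transcripts, from 6961 nt, had 0.066, with 184 higher and 32 lower. Slc25a5, with a longest annotated transcript of 1240 nt, is the 1 tested carrier in the shortest bin, and 38.7% of that bin had a lower fold change. Slc25a12, at 6351 nt, lies in bin 9, from 5407 to 6957 nt, where the median was 0.029 and 93.5% of genes had a lower fold change. With the length and GC correction Slc25a12 kept a log2 fold change of 0.20 (adjusted p = 0.0128), while the Slc25a5 call was lost, as given above. Slc25a32, at 5905 nt, had 0.17 (adjusted p = 0.130), and Slc25a27, at 2895 nt, 0.15 (adjusted p = 0.0584).

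**Figure D4:**
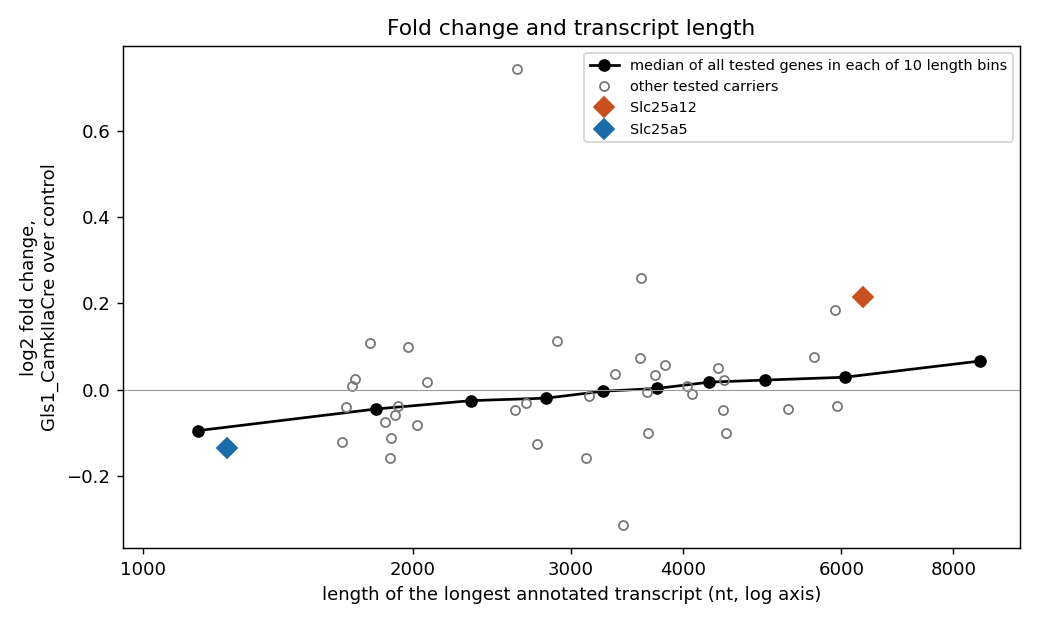
Log2 fold change of Gls1_CamkIIaCre over control against the length of the longest annotated transcript (log axis) for 40 of the 41 tested carriers, with the median of all tested genes in each of 10 length bins as a black line. The line runs from -0.095 to 0.066, Slc25a5 lies close to its short end, and Slc25a12 at 0.22 lies above its long end.

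Family members that carry other symbols lie outside the 47 genes. Of 4 tested, 0 rose and 2 fell, where 4.29% of all tested genes fell, and their median log2 fold change was -0.22. Ucp2, an uncoupling protein prominent in microglia and other immune cells, fell from 17.7 ± 1.36 CPM in controls to 13.1 ± 1.26 CPM (SD, n = 3 per group), with a log2 fold change of -0.43 and an edgeR adjusted p of 0.00860. Microglia markers moved in the same direction, 3 of 10 lower and 0 higher with a median of -0.23, and their part in the Ucp2 value was not tested. Mtch2, a carrier-like protein of the outer membrane, fell from 87.8 to 79.1 CPM (log2 fold change -0.15, adjusted p = 0.0456). The Mtch2 call was lost in all 6 runs that left out a library, by DESeq2 (adjusted p = 0.0985) and with length and GC corrected for (0.156). Ucp3 and Mtch1 did not pass, at -0.29 and -0.042, and Ucp1 was too low to test.

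Enzymes that make or use glutamate gave 3 calls among 18 tested (16.7%), all lower, with a median of -0.043. Of all tested genes, 8.24% were called in either direction and 4.29% were called lower. Gad2, which makes GABA from glutamate, fell from 301 CPM in controls to 243 CPM (edgeR adjusted p = 0.000631), Abat, which breaks GABA down, from 341 to 301 CPM, and Aspa, the oligodendrocyte enzyme that splits N-acetylaspartate, from 17.3 to 13.6 CPM. Gad2 is also on the inhibitory neuron list. Among the 3 controls, control 2 had the most striatal signal and the highest Gad2, Abat and Aspa values (314, 362 and 18.2 CPM). A part of striatal signal in these falls was not tested. Glud1, the glutamate dehydrogenase of the matrix, had 281 ± 3.26 against 260 ± 5.30 CPM without overlap (adjusted p = 0.0768). Asns, with a smaller p, went the other way, from 91.8 ± 5.37 to 103 ± 6.25 CPM with overlapping groups (edgeR adjusted p = 0.0675). Over the list, 3 genes had a fold change above 0 and 15 below. Among 20 other mitochondrial transport genes, 1 fell (5%, near the share of all tested genes) and 0 rose, with a median of -0.053. The called gene was Smdt1, a subunit of the calcium uniporter, which went from 52.8 to 44.3 CPM (adjusted p = 0.00972). Of 15 genes of protein import, Timm8b and Tomm70a fell (13.3%) and 0 rose, with a median of -0.080. The import receptor Tomm70a, which recognises carrier precursors in the cytosol, fell from 278 to 251 CPM (adjusted p = 0.0278), and Timm8b from 57.9 to 49.5 CPM. Timm8b and Smdt1 have short transcripts, of 518 and 736 nt, and both calls were lost after the length and GC correction, with log2 fold changes of -0.076 (adjusted p = 0.532) and -0.12 (0.255). Those of Gad2, Abat, Aspa, Ucp2 and Tomm70a held under that correction. Of the 6 runs that left out a library, Gad2 was called in 6, Smdt1 in 5, Abat, Ucp2 and Timm8b in 4, and Aspa and Tomm70a in 3.

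Upstream sequences were compared for the 32 tested carriers with an entry in the RefSeq promoter table (GRCm38.p6). The 250 bases before the start given there had a median GC content of 59.2% and 14 CpG dinucleotides. Over all 27025 genes with an entry, tested or not, the medians were 52.0% and 6. The sequences of the 2 called carriers are shown because they differ in this respect, with CpG dinucleotides in capitals. The first, at chr2:71367756-71368005 on the minus strand, holds 6 CpG and 49.6% GC, and the second, at chrX:36795347-36795596 on the plus strand, 14 CpG and 61.6% GC. The promoter entry of Slc25a12 uses a start inside the NCBI gene span, which ends at 71367781. Part of that window therefore lies within the span.
Slc25a12: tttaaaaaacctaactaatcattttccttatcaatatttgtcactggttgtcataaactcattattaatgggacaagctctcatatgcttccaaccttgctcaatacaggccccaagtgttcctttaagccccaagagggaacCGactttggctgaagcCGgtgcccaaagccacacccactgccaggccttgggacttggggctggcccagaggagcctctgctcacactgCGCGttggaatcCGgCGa
Slc25a5: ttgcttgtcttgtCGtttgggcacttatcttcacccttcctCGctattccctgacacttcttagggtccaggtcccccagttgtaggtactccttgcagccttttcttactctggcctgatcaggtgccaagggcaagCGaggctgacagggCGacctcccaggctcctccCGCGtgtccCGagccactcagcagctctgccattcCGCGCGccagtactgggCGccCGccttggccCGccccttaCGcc
Motifs were searched as exact letters on both strands. CCAAT was present in 18 of 32 carriers (56.2%) and 37.5% of all genes, and the E-box CACGTG in 6 (18.8%) and 6.86%. The cAMP response element TGACGTCA occurred in Slc25a25 and Slc25a36 (6.25%, against 1.77% of all genes), and AAGGTCA, the motif of estrogen-related receptors, in Slc25a34 alone (3.12%, against 4.70%). The palindromic NRF1 motif was in 0 of 32 and 0.877% of all genes. None of the 5 motifs was found in the windows of Slc25a12 and Slc25a5. These shares are a description and were not adjusted for the higher GC content of the carriers. The carriers compared had passed the filter on low counts, while the 27025 genes were not filtered by expression. The differences therefore cannot be assigned to the carriers as a family.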

How the data were processed

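Whole-number counts per gene and a second table in FPKM were deposited by the authors for 6 libraries. Libraries were prepared from TRIzol-extracted RNA by a SMARTer protocol, per the labels. The submitters' processing notes name GRCm38 (mm10) as the build. The aligner, counter and strand setting were not given in the sources used here. Spans of Slc25a21, Slc25a25, Slc25a11, Slc25a26, Slc25a53 and Slc25a35 overlap another protein-coding gene, so their reads may be mixed.

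The test on counts was run in edgeR 4.0.16 under R 4.3.3 (TMM, filterByExpr, robust glmQLFit and glmQLFTest, no covariate) over 14440 genes, with Benjamini-Hochberg adjustment over all of them. Standard errors are the log2 fold change divided by the square root of F, and 95% intervals use the moderated t quantile. Alternatives used DESeq2 1.42.0, limma 3.58.1 (voom, or an intensity trend on log2(FPKM + 1) and log2(FPKM + 0.1)), other factors and filters, a replicate block and leaving out each library. The length and GC correction, chosen after the data were seen, took a spline of 4 degrees of freedom per property and library from the longest GENCODE M21 transcript, found for 96.7% of tested genes. The procedure was tested on simulated data. Of 67 genes given a 1.2-fold change, 31 were called (46.3%), so changes of that size were often missed there. At 1.5-fold 58 of 67 were called, and at 2-fold 59 of 66. Of 14138 genes given no change, 5 were called. The simulated data held far fewer changed genes than the 1190 called in the real data. The adjusted threshold depends on that number, so these shares do not carry over directly. The dispersion shared by all genes corresponded to a biological coefficient of variation of 4.75%. No library repeated another within its group: counts of each pair gave a chi-square of at least 2.27 times its degrees of freedom.

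The members and the gene lists were chosen with earlier results of these data known. Substrate groups of the carriers are assignments made here, and transport was not measured. Full values are given for called carriers, the 8 of smallest p and the 5 carriers of glutamate, aspartate and oxoglutarate, and Slc25a1, Slc25a4 and Slc25a21 were added after their values were seen. Of the other lists, called genes are named. Some others, Glud1 and Asns among them, were named after their values were seen. The targeted gene and 1 tested carrier, which counts over the carriers include, are not reported here.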

Additional observations from a re-analysis of the deposited data

How the results depend on the processing

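The number of carriers called was 2 with the main settings and 1 with DESeq2, with limma voom and after the length and GC correction, and 1 to 2 when a library was left out. Slc25a12 was in each of these sets. The median log2 fold change of the carriers ranged from -0.034 to 0.025 over all settings. Of all genes 1190 were called, against 674 on log2(FPKM + 1), 729 on log2(FPKM + 0.1) and 415 (without Gls1_CamkIIaCre 2) to 1098 (without control 3) when a library was left out. Other such counts were 635 without control 2, 763 without control 1 and 778 without Gls1_CamkIIaCre 1.

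Fold changes turned in sign under at least 1 alternative for 18 of 41 tested carriers, 8 of them after the length and GC correction, and 0 of the 18 passed under any setting. Of the 12 carriers chosen for full values before Slc25a1, Slc25a4 and Slc25a21 were added, 3 were among them. Slc25a11 (0.0092) had -0.0076 with upper-quartile factors, -0.010 on log2(FPKM + 1) and also on log2(FPKM + 0.1), -0.022 without control 3 and -0.013 without Gls1_CamkIIaCre 3. Leaving out a library gave Slc25a11 values from -0.022 to 0.037, and the length and GC correction gave 0.087. Slc25a13 (-0.16) had 0.045 on log2(FPKM + 1) and 0.098 on log2(FPKM + 0.1). Slc25a18 (-0.059) had 0.012 after the length and GC correction. The cause was not tested. A replicate block gave 2 carriers and 1758 genes. The labels do not say whether equal numbers pair the mice, so a pairing is neither known nor excluded. Same-numbered libraries correlated at 0.14, -0.026 and 0.14, and differently numbered ones from -0.17 to 0.047. Not every library correlated best with its own number. Depth limits the 6 untested carriers and those under about 5 CPM the most. Intervals past 1.2-fold also occurred above that level, as given with the precision of these libraries.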
